A study of Mus musculus with 10 samples.

Results

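A list of 10 genes, given by the study as markers of a *Ptx3*-expressing group of lymphatic capillary cells, was examined in single endothelial cells of mouse ear skin. The 10 genes, *Ptx3*, *Npnt*, *Olfml2a*, *Itih5*, *Nsg1*, *Susd2*, *Serinc2*, *Tspan18*, *Mest* and *Pcsk6*, were all found among the 46517 Ensembl genes of the count tables. They had been listed from clusters of lymphatic endothelial cells (LECs) of these same plates, so every value within LECs is given below as a description, and tests were run only where blood endothelial cells (BECs) enter. The cells came from ear skin of 7 mice aged 5 weeks and were sequenced by Smart-seq2, a plate method that reads whole transcripts of single sorted cells without marking the strand. The 5 mutant mice carried a Cre-inducible Pik3caH1047R transgene, an activated form of the catalytic PI3K subunit, together with Cdh5-CreERT2, whose promoter is active in LECs and BECs alike. Recombination was induced at 3 weeks with 4-hydroxytamoxifen (4-OHT, 10 mg/ml in acetone) put on the ears. Control 1 was an untreated C57BL/6J mouse. Control 2 was a Cre-negative littermate given 4-OHT in the same way, and a further control is not analysed here. All cells had been sorted for Podoplanin and CD31 after exclusion of CD45, CD11b and Ter119.

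Lymphatic capillaries are blind-ended vessels that take up fluid and immune cells from the skin, and their endothelium differs along the vessel from capillary tips to collecting vessels and valves. *Ptx3* encodes pentraxin 3, a secreted pattern recognition molecule of innate immunity that is also built into hyaluronan-rich matrix together with inter-alpha-trypsin inhibitor heavy chains. Activated PI3K in endothelium is a known driver of lymphatic and venous malformations.

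Cells were assigned by 3 marker genes for each class. A cell was called an LEC where *Prox1*, *Flt4* and *Mmrn1* summed to at least 300 CPM (a gene's reads scaled to the same total in every cell or sum) and exceeded the sum of *Flt1*, *Emcn* and *Podxl*, and a BEC by the reverse rule. Of 3456 wells on 9 plates, 3248 passed the quality limits, with a median of 295698.5 reads per cell and 99738886 to 151102969 reads per plate. The 2 controls gave 183 and 175 LECs and the 5 mutants gave 184, 187, 363, 182 and 367. BECs numbered 159 and 157 in controls and 183, 184, 330, 174 and 303 in mutants, and 117 cells met neither rule. The median LEC marker sum was 4510.4 CPM in LECs and 58.3 CPM in BECs, whereas 1048 of 1641 LECs and 153 of 1490 BECs passed 300 CPM in both sums. Only 8 LECs had a marker sum from 300 to 450 CPM, and 4 cells with a sum from 200 to 300 CPM fell just outside. No cell name or cell profile was shared between plates. Mutants 1 to 4 were run on plates of a lower number series than mutant 5 and both controls, so genotype and plate series overlap almost completely. The labels also mark the first plate of mutant 5 as echo and the plate of control 2 as skm, without saying what these mean. Spike-in reads made up 0.723 and 0.897% of reads on the control plates and 0.217 to 0.467% on the mutant plates.

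The promoters of *Ptx3*, *Npnt* and *Olfml2a* are shown because these genes were the most alike over mutant LECs. RefSeq gave the 250 bases before its own start of 7 of the 10 genes on GRCm38.p6. That start lay 9959 bases from the gene start given below for *Mest*, 3619 for *Serinc2* and 402 for *Pcsk6*. The windows of these genes thus lie inside the gene, and for the others the starts differed by at most 28 bases. The windows are written 5′ to 3′ on the gene's own strand with every CG pair in capitals.
*Ptx3*, chr3:66219637-66219886, plus strand: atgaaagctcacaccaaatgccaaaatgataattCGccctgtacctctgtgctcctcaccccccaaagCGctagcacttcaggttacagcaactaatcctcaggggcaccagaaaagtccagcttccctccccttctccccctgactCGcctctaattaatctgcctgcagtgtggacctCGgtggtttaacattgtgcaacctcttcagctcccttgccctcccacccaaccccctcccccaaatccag
*Npnt*, chr3:132950292-132950541, minus strand: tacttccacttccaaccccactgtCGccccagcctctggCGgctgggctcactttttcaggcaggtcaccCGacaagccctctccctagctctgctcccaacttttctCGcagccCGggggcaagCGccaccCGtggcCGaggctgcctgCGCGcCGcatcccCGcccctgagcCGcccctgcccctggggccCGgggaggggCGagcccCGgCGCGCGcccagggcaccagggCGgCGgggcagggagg
*Olfml2a*, chr2:38931730-38931979, plus strand: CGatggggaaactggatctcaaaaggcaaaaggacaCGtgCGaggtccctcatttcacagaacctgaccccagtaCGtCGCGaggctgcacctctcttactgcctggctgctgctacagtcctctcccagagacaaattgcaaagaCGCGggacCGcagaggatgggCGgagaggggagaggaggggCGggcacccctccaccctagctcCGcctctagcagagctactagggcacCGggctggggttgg
The *Ptx3* window held 4 CG pairs with a GC content of 54.0%, *Olfml2a* held 13 with 61.6% and *Npnt* 21 with 74.0%. Among all 32851 RefSeq windows of this length the median was 6 CG pairs, 44.4% had 4 or fewer, 31.5% had 13 or more and 16.3% had 21 or more. In all, 4 short motifs were searched on both strands, namely GTAAACA of FOXO factors, TGANTCA of AP-1, the kappa B consensus of NF-kB and CCGGAAG of ETS factors. None of the 4 motifs was found in the 7 windows, and they were found in 3.17%, 6.75%, 1.41% and 6.91% of all windows, respectively.

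The genes lie on 7 chromosomes in GRCm38 with GENCODE vM21 annotation. *Ptx3* is at chr3:66219910-66225805 and *Npnt*, on the other strand of the same chromosome, at chr3:132881745-132950291. *Olfml2a* is at chr2:38931978-38963753, *Itih5* at chr2:10153571-10256529 and *Tspan18* at chr2:93201760-93334505. *Nsg1* is at chr5:38137192-38159907, *Susd2* at chr10:75636706-75644008 and *Serinc2* at chr4:130253495-130279205, with *Mest* at chr6:30723547-30748465 and *Pcsk6* at chr7:65861734-66050386. Counts span all exons of a gene. Because strand was not kept, reads on the 17.9% of *Nsg1* exon bases shared with *Stx18* and on the 23.1% of *Mest* exon bases shared with *Copg2* cannot be told apart from those of the overlapping gene.

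The first question was how each gene varied with *Ptx3* from cell to cell. Spearman's rho between the CPM of a gene and that of *Ptx3* was computed over the single LECs of each mouse and averaged over mice of a genotype, with n = 2 controls and n = 5 mutants. The cells of a mouse came from 1 plate, or from 2 in mutants 3 and 5. They differed in depth and in the number of genes detected. In control LECs the 9 other genes had a median mean rho of 0.165, where the median over all 10051 genes tested was 0.0240. In all, 3 of the 9 exceeded 0.2, which 0.239% of all genes did. *Tspan18*, a tetraspanin of the cell surface, had rho of 0.153 and 0.380 in controls 1 and 2, *Mest*, an imprinted gene of the alpha/beta hydrolase fold family, 0.134 and 0.369, and *Serinc2*, a membrane protein of the serine incorporator family, 0.225 and 0.198. By mean rho these 3 ranked 4, 5 and 18 among all genes.

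The remaining genes had lower mean values, although 4 of them were above *Tspan18* and *Mest* in control 1. *Pcsk6*, a proprotein convertase that cleaves secreted precursors, had rho of 0.204 and 0.157, *Npnt*, the matrix protein nephronectin, had 0.167 and 0.164, and *Olfml2a*, a secreted olfactomedin-domain protein, had 0.166 and 0.156. *Itih5*, an inter-alpha-trypsin inhibitor heavy chain, had 0.162 and 0.0879 and *Susd2*, a membrane protein with a sushi domain, 0.117 and 0.0183. *Nsg1*, a protein of endosomal sorting first known from neurons, was the single gene below 0 in both controls, at -0.0596 and -0.113.

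In mutant LECs the order was different. *Npnt* had the highest mean rho with *Ptx3* of all 9994 genes tested, with 0.436, 0.529, 0.629, 0.620 and 0.437 in mutants 1 to 5, and a mean of 0.530 ± 0.0941 (SD, n = 5). *Olfml2a* was next, with 0.346, 0.533, 0.521, 0.566 and 0.390 and a mean of 0.471 ± 0.0966 (SD, n = 5). All 5 mutant values of both matrix genes lay above both control values. The same held for *Susd2*, with 0.180, 0.396, 0.395, 0.377 and 0.371, for *Serinc2*, with 0.278, 0.375, 0.376, 0.379 and 0.254, and for *Nsg1*, with 0.141, 0.0571, 0.153, 0.266 and 0.283. These 5 of 9 genes compare with 13.7% of the 9435 genes tested in both genotypes, and none of the 9 was below both controls in every mutant, as 4.77% of those genes were. *Susd2* ranked 22, *Serinc2* 30 and *Nsg1* 339. Cells without a read of a gene are tied in rank, and their share differed between the genotypes. Counting every read, *Npnt* was found in a mean of 25.3% of control and 85.3% of mutant LECs. For *Ptx3* the shares were 52.0% and 81.2%. How far this bears on the difference in rho was not tested.

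The other genes overlapped between genotypes. *Mest* had 0.258, 0.286, 0.342, 0.414 and 0.127 in mutants 1 to 5, *Tspan18* had 0.384, 0.207, 0.286, 0.252 and 0.245, and *Pcsk6* had 0.201, 0.250, 0.178, 0.245 and 0.267. *Tspan18* and *Mest*, which stood near the top in controls, ranked 79 and 67 in mutants. *Itih5* was near 0, with -0.0700, 0.248, 0.0182, 0.0472 and 0.0824, and ranked 4495. The median over the 9 genes was 0.285 in mutants, where the median of all genes was 0.0584, and 7 of 9 exceeded 0.2, as 2.59% of all genes did. As the mutant clusters were part of what the list was drawn from, these ranks are no independent support for it.

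The number of genes detected per cell moved with these values. Its rho with *Ptx3* was 0.0295 and 0.320 in the control mice and 0.0842 to 0.412 in mutants, and in mutants it reached 0.325 to 0.505 with *Npnt* and 0.303 to 0.560 with *Olfml2a*. With the number of genes held fixed in a partial rank correlation, the mean rho of *Npnt* with *Ptx3* in mutants was 0.472 and that of *Olfml2a* 0.402, and the median of the 9 genes was 0.241 in mutants and 0.146 in controls. Between the 2 plates of mutant 3, *Npnt* had rho of 0.572 and 0.662. Between those of mutant 5, the first of which is labelled echo, it had 0.546 and 0.348. For *Olfml2a* the pairs of plates gave 0.517 and 0.534 in mutant 3 and 0.468 and 0.293 in mutant 5, so plates of 1 animal differed by up to about the spread between animals.

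To show the size of these relations in CPM, each LEC was thinned to 50000 reads and grouped by its *Ptx3* reads. The CPM of a group were taken from all reads of its cells. Cells with 0 *Ptx3* reads after thinning could thus still hold some, at 1.15 and 2.06 CPM in controls and 2.13 to 6.91 CPM in mutants. Cells with 10 or more *Ptx3* reads made up 6.01 and 21.1% of LECs in the 2 controls (11 and 37 cells) and 29.3, 30.5, 31.4, 34.6 and 37.1% in the 5 mutants (54, 57, 114, 63 and 136 cells). Control 1 thus rests on 11 such cells. *Npnt* went from a mean of 6.70 CPM in control LECs of the group with 0 reads to 92.3 CPM in those with 10 or more. In mutant LECs it went from 124 to 831 CPM. The ratio of these 2 levels ran from 12.7 to 14.4 over the control mice and from 3.25 to 17.001 over the mutants. The mutant LECs with 0 *Ptx3* reads after thinning thus had a mean *Npnt* level close to that of the control LECs with 10 or more. The mice of these groups overlapped.

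*Olfml2a* went from 148 to 735 CPM in controls and from 495 to 1418 CPM in mutants, with ratios of 3.33 to 7.20 and 2.11 to 4.36. *Serinc2* ratios were 3.05 to 3.70 in controls and 1.63 to 3.51 in mutants, *Mest* ratios 4.88 to 4.99 and 1.30 to 4.17, and *Tspan18* ratios 1.72 to 2.61 and 1.38 to 2.47. These 4 genes were higher in the *Ptx3*-rich cells of all 7 mice. *Nsg1* went the other way in controls, from 681 to 499 CPM with ratios of 0.620 to 0.852, whereas in mutants its ratios were 1.19 to 1.30. *Susd2* had ratios of 1.28 to 1.36 and 1.62 to 2.0998. *Pcsk6*, at 1.20 to 1.56 and 1.17 to 1.62, was higher in the *Ptx3*-rich cells in every mouse. *Itih5* ratios were 1.76 to 3.13 in controls and 0.912 to 1.79 in mutants, where 4 of 5 mice were above 1.

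**Figure D1:**
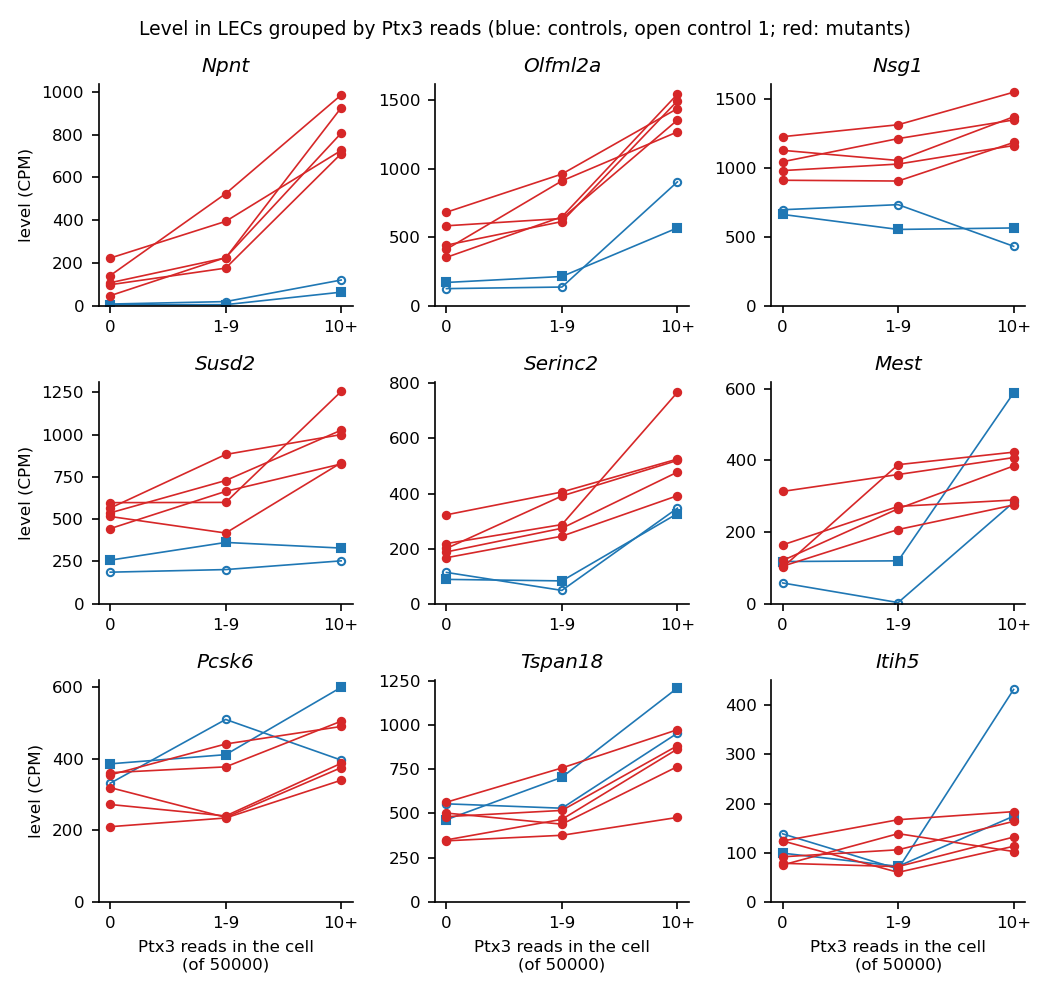
Level in CPM (axes from 0) of each gene, from all reads of the cells, with 1 line per mouse in the colour of its genotype. LECs were grouped by 0, 1 to 9 and 10 or more *Ptx3* reads after thinning to 50000 reads. For *Npnt*, *Olfml2a*, *Serinc2*, *Mest*, *Tspan18*, *Susd2* and *Pcsk6* the last group lies above the first in all 7 mice. Some of these lines dip in the middle group. In the 2 control lines of *Nsg1* the last group lies below the first.

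The genes whose pattern was most like that of *Ptx3* were ranked by the same mean rho, leaving out the 10 markers and predicted genes. In the 5 mutants the first 10 were *Nrp2*, a semaphorin and VEGF-C receptor, at 0.471, *Ggct* at 0.460, the matrix protein gene *Sparc* at 0.457, *Cotl1* at 0.451, *Ckb* at 0.417, the gelatinase gene *Mmp2* at 0.417, the metalloprotease gene *Adam12* at 0.416, the chemokine scavenger gene *Ackr2* at 0.394, the water channel gene *Aqp1* at 0.391 and *Gria2* at 0.376. In the 2 controls they were *Aqp1* at 0.314, *Igfbp4* at 0.312, the mannose receptor gene *Mrc1* at 0.274, the cyclin D genes *Ccnd1* at 0.237 and *Ccnd2* at 0.231, *Metap1d* at 0.229, *Nipsnap2* at 0.227, *Pfn1* at 0.221, *Pld5* at 0.219 and *Cda* at 0.218. *Aqp1* was the 1 gene on both lists, and 6 of the mutant 10 and 5 of the control 10 were themselves listed by the study as markers of the cluster. *Igfbp4*, near the top in controls, had a mean rho of -0.0415 in mutants.

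The study named 40 further markers of the cluster, chosen on these cells. All 40 had a mean rho above 0 with *Ptx3* in controls, with a median of 0.125, and 7 of 40 exceeded 0.2. In mutants 35 of 40 were above 0 and 23 exceeded 0.2, with a median of 0.240. The highest was *Ggct*, an enzyme of glutathione breakdown, at 0.460, and the lowest was the protease gene *Prss23* at -0.129, which had 0.117 in controls. Of 19 genes of hyaluronan matrix, turnover and receptors, only 6 passed 10 CPM in control LECs and 8 in mutants. Their median rho was 0.0395 and 0.0527, near that of all genes. The scavenger receptor gene *Stab2* had the highest mutant value, 0.254, and the hyaluronidase gene *Hyal1* the lowest, -0.115. Close relatives of the 10 genes, such as *Serinc1* and *Furin*, had a median rho of 0.0262 in controls and 0.0295 in mutants over the 7 and 6 of 15 that passed the limit.

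Correlation among the 10 genes was not uniform. Over mutant LECs the 45 pairs had a median mean rho of 0.180, and 20 pairs exceeded 0.2. The strongest pair was *Npnt* and *Olfml2a* at 0.569, with 0.511 to 0.640 over the 5 mice, and *Olfml2a* and *Susd2* reached 0.449. In control LECs the median was 0.0836 and 6 pairs exceeded 0.2, with *Npnt* and *Olfml2a* at 0.207 *Susd2* and *Pcsk6* highest at 0.269 and *Ptx3* and *Tspan18* next at 0.267. *Itih5* stood apart in mutant LECs, where its rho with the other 9 genes ran from -0.104 with *Nsg1* to 0.127 with *Pcsk6*.

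Pairs in BECs were in part others. Over mutant BECs the pair of *Olfml2a* and *Itih5* was the highest, at 0.358 (0.240 to 0.403 over 5 mice), whereas over mutant LECs it was 0.00539. *Npnt* and *Olfml2a* had 0.343 over mutant BECs, with 0.188 to 0.537 over the mice. Of the 9 pairs over 0.2, 1 held *Ptx3*, that with *Susd2* at 0.206 (0.0391 to 0.358 over the mice), whereas *Ptx3* with *Npnt* was at 0.0881 and with *Olfml2a* at 0.0169. In control BECs no pair exceeded 0.2.

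**Figure D2:**
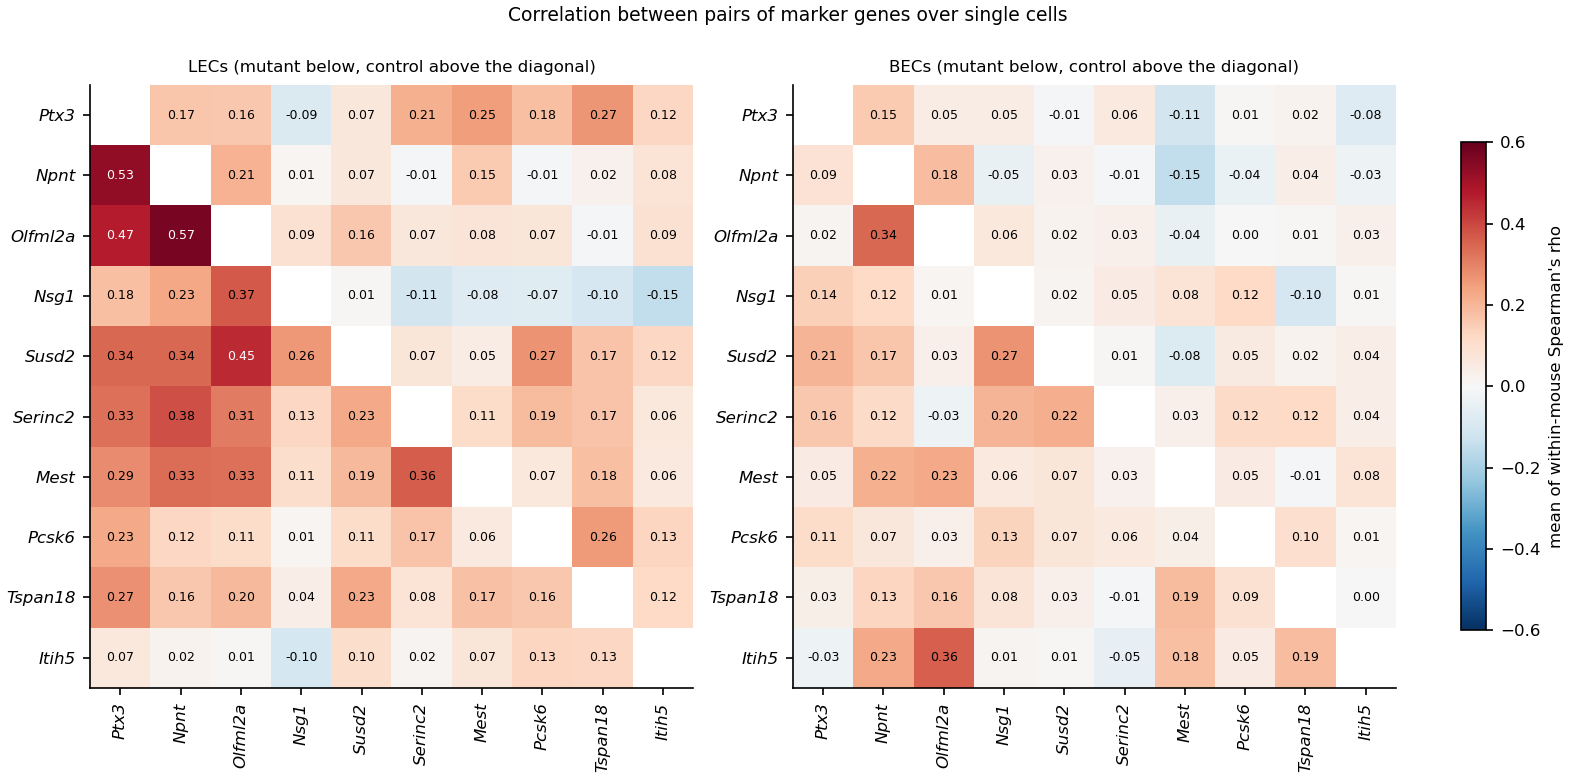
Mean within-mouse Spearman's rho between each pair of the 10 genes over LECs (left) and BECs (right), with the mean of 5 mutants below and of 2 controls above the diagonal, coloured from -0.6 to 0.6. The darkest cells are those of *Ptx3*, *Npnt* and *Olfml2a* in mutant LECs, and in mutant BECs those of *Olfml2a* with *Itih5* and with *Npnt*.

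The label of a capillary cluster was set against LEC subtype markers that the study uses. The median rho with 6 capillary markers, among them *Lyve1* and *Reln*, was 0.266 in controls and 0.103 in mutants for *Tspan18*, and 0.255 and 0.148 for *Pcsk6*. *Ptx3* itself had 0.0376 in controls and -0.114 in mutants, but the 6 markers went both ways with it. *Lyve1*, the hyaluronan receptor of lymphatic capillaries, was the highest of them with *Ptx3* in both genotypes, at 0.153 in controls and 0.197 in mutants, and *Stmn2* the lowest, at -0.0892 and -0.297. *Npnt* had -0.0987 and -0.205, *Olfml2a* had -0.124 and -0.257, and *Nsg1* had -0.187 and -0.153. In both genotypes *Npnt*, *Olfml2a* and *Nsg1* were thus on the negative side of these capillary markers. *Tspan18* and *Pcsk6* were on the positive side, and these correlations are weak for sparse counts. The mean rho with the LEC marker sum used to assign cells split these genes alike. It was 0.483 in controls and 0.160 in mutants for *Tspan18*, and 0.299 and 0.161 for *Pcsk6*. *Npnt* had -0.0916 and -0.325 with this sum, *Olfml2a* had -0.0585 and -0.322, and *Nsg1* had -0.163 and -0.204. Whether the split is particular to capillary markers was not tested. With 6 collecting vessel markers the mutant value of *Ptx3* was -0.161 and that of *Serinc2* -0.183. Controls did not show this for *Ptx3*. Taken as the median of the mean rho over these markers, *Ptx3* had 0.0342 in controls, with 4 of 6 above 0. In mutants it had -0.171, with 1 of 6 above 0. With 7 cell cycle genes the mutant values were 0.185 for *Mest*, 0.164 for *Npnt*, 0.149 for *Serinc2* and 0.0814 for *Ptx3*. Cells were not clustered here, so the label of the cluster was not tested as such.

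Levels in LECs were compared next, as reads summed over the LECs of a mouse and given in CPM. In such sums, more cells with a transcript and more transcript per cell cannot be told apart. *Ptx3* stood at 37.3 and 159 CPM in controls 1 and 2 and at 295, 299.97, 307, 361 and 287 CPM in mutants 1 to 5. *Npnt*, a ligand of integrins, had 17.1 and 18.3 CPM in controls and 319.6, 315, 414, 544 and 476 CPM in mutants. All 5 mutants were above both controls for these 2 genes, and the fold of the means was 3.15 for *Ptx3* and 23.4 for *Npnt*. The 2 controls of *Ptx3* were far apart, whereas those of *Npnt* were 17.7 ± 0.817 CPM (mean ± SD, n = 2).

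*Olfml2a* had 179 and 265 CPM in controls and 849, 774, 839, 837 and 1068 CPM in mutants, again without overlap. The membrane proteins *Susd2* and *Serinc2* did the same. *Susd2* had 193 and 288 CPM in controls and 595, 745, 828, 634 and 791 CPM in mutants, and *Serinc2* had 123 and 141 and 261, 405, 304, 360.1 and 429 CPM. *Nsg1* was the highest of these at 684 and 628 CPM in controls and 1001, 1047, 1202, 1196 and 1384 CPM in mutants. In all, 6 of the 10 genes were higher in every mutant than in either control, as were 12.5% of the 19758 genes tested, and 0 of 10 were lower in every mutant, as were 12.7%. Because the list was drawn in part from mutant clusters, nothing is read from this count.

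Overlapping values were seen for *Mest*, *Pcsk6*, *Tspan18* and *Itih5*. *Mest* had 67.4 and 224 CPM in controls and 234, 240.2, 182, 250.4 and 366 CPM in mutants, with the spread of the controls as wide as the difference. *Tspan18* had 578 and 663 and 549, 579, 740.5, 651 and 407 CPM, *Pcsk6* 355 and 437 and 413, 306, 418, 330.0 and 269 CPM, and *Itih5* 150.4 and 112 and 103, 117, 152, 95.5 and 97.2 CPM. These 3 had folds of the means from 0.860 to 0.943. On the log2 scale of edgeR, given without a test, mutant minus control was 4.60 (SE 0.31) for *Npnt*, 2.03 (SE 0.19) for *Olfml2a*, 1.73 (SE 0.46) for *Ptx3*, 1.64 (SE 0.20) for *Susd2* and 1.47 (SE 0.22) for *Serinc2*. These 5 exceeded 1, as did 13.6% of all genes. *Nsg1* and *Mest* stood at 0.88 and 0.88, and *Tspan18*, *Pcsk6* and *Itih5* at -0.03, -0.14 and -0.17.

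The value of *Ptx3* rested on which control was used. Without control 2 the log2 difference in LECs was 3.06, and without control 1 it was 1.08. For *Mest* the same 2 values were 1.91 and 0.30, and for *Npnt* 4.60 and 4.62. Cycling LECs numbered 8 of 358 in controls and 322 of 1283 in mutants, and the summed level of 7 cell cycle genes was 71.6 to 95.6 CPM in control and 447 to 790.2 CPM in mutant LECs. Without cycling cells, *Npnt* stood at 4.44, *Olfml2a* at 2.03, *Ptx3* at 1.82 and *Mest* at 0.45. The 5 fibroblast markers summed to 193 to 382 CPM in control and 15.8 to 106 CPM in mutant LECs, and with the 58 LECs removed that held at least 1000 CPM of another cell type's markers, *Npnt* stood at 4.68 and *Ptx3* at 1.67.

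The share of LECs with a read followed the sums. After thinning to 50000 reads, *Ptx3* was found in 16.9 and 34.3% of control LECs and in 57.1, 43.9, 54.0, 51.6 and 70.6% of mutant LECs. *Npnt* went from 10.9 and 6.86% to 64.7, 40.6, 62.3, 58.2 and 78.2%. For both genes every mutant was above both controls. Mean shares of *Olfml2a* were 54.3% ± 5.67 (SD, n = 2) and 85.3% ± 7.88 (SD, n = 5), and those of *Serinc2* 33.5% ± 3.68 and 61.8% ± 11.1. *Nsg1* was found in nearly all LECs of both genotypes, at 90.7% ± 4.64 and 98.0% ± 1.32, and its sum nonetheless differed. *Tspan18* and *Itih5* shares were alike, at 84.9% ± 0.314 and 82.4% ± 4.29 for *Tspan18* and 41.9% ± 16.5 and 42.9% ± 5.88 for *Itih5*. Per kilobase of exon, the mean level in mutant LECs was highest for *Nsg1* at 363 RPKM (CPM per kilobase of exon), then *Susd2* at 221, *Olfml2a* at 157, *Serinc2* at 152, *Ptx3* at 116, *Npnt* at 82.4, *Tspan18* at 71.6, *Pcsk6* at 67.5 and *Mest* at 64.5, and lowest for *Itih5* at 14.3 RPKM. The ranges of neighbours in this order over the 5 mice overlapped, with 2 exceptions. The lowest *Nsg1* value lay above the highest of *Susd2*, and the highest of *Itih5* below the lowest of *Mest*. Order within single mice was not compared. In control LECs *Nsg1* was again the highest at 204 RPKM and *Npnt* the lowest at 3.52 RPKM.

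BECs carry the same transgene and were not used by the study to list the genes, so here the genotypes were tested. The 10 genes were chosen with earlier results of these data known, which limits the test as independent support. In edgeR's quasi-likelihood test with Benjamini-Hochberg adjustment over 19315 genes, *Npnt*, *Olfml2a* and *Itih5* were higher in mutant BECs, that is 3 of the 10 genes, as were 1.51% of all genes, and none of the 10 was called lower, against 0.611%, as all 10 log2 fold changes were above 0. *Npnt* had 24.7 and 37.8 CPM in control and 203, 229, 156, 179 and 168 CPM in mutant BECs, a log2 change of 2.65 ± 0.26 (SE, adjusted p = 0.00428). *Olfml2a* had 111 and 218 CPM in controls and 589, 739, 723, 547 and 707 CPM in mutants, a log2 change of 2.07 ± 0.28 (SE, adjusted p = 0.0122). *Itih5* had 281 and 263 CPM in controls and 403, 599, 597, 663 and 504 CPM in mutants, a log2 change of 1.09 ± 0.21 (SE, adjusted p = 0.0381). All 5 mutants lay above both controls for each of these genes.

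The other 7 did not pass the edgeR test, although *Mest*, *Serinc2* and *Ptx3* also had every mutant above both controls. *Mest* had 19.6 and 111 CPM in control and 247, 248, 209, 195 and 229.5 CPM in mutant BECs, with a log2 change of 1.86 ± 0.56 (SE, adjusted p = 0.129). *Serinc2* had 6.54 and 1.24 and 34.3, 15.9, 13.033, 17.9 and 38.0 CPM, with 2.66 ± 0.77 (SE, adjusted p = 0.119). Counted by non-overlap, 6 of 10 genes were higher in mutant BECs, as were 12.2% of all genes. The log2 fold changes of *Susd2*, *Pcsk6*, *Nsg1* and *Tspan18* were 1.77, 1.10, 0.96 and 0.68, with edgeR adjusted p from 0.169 to 0.351. The median log2 fold change over the 10 genes was 1.82, beside 0.01 over all genes.

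*Ptx3* was near 0 in BECs, at 0.456 and 1.19 CPM in controls and 40.4, 2.03, 2.59, 2.60 and 4.92 CPM in mutants, with an edgeR log2 change of 3.73 ± 1.57 (SE, adjusted p = 0.238). Mutant 1 stood apart. Of its 1552 *Ptx3* reads, 1275 came from 3 of 183 BECs, which had LEC marker sums of 121 to 832 CPM. Without these 3 cells the level was 7.65 CPM. The share of BECs with a *Ptx3* read after thinning was 1.26 and 7.01% in controls and 37.7, 8.15, 14.5, 10.9 and 20.8% in mutants, and with at least 3 reads it was 0% and 1.64% on average, against 16.7% and 40.3% of LECs. *Npnt*, by contrast, was found in 13.2 and 12.1% of control and 59.6, 45.7, 49.4, 42.5 and 55.4% of mutant BECs.

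Other cell types moved with genotype in the BEC sums. The 5 fibroblast markers summed to 575 to 789.8 CPM in control and 12.8 to 43.4 CPM in mutant BECs, the 5 mural cell markers to 273 to 665 and 9.40 to 135 CPM, and the 5 keratinocyte markers to 325 to 473 and 12.9 to 695 CPM. None of the 15 markers was at 0 in any mouse. The 5 immune markers summed to 0.0488 to 1.56 and 0.709 to 2.70 CPM, the 4 Schwann cell markers to 2.05 to 96.4 and 27.2 to 38.1 CPM and the 7 cell cycle genes to 21.9 to 44.2 and 123 to 528 CPM. Without the 112 BECs that held at least 1000 CPM of another type's markers, the edgeR log2 fold change of *Npnt* was 2.60 ± 0.28 (SE, adjusted p = 0.00546), that of *Olfml2a* was 1.90 ± 0.24 (SE, adjusted p = 0.00855) and that of *Itih5* was 0.98 ± 0.22 (SE, adjusted p = 0.0540). With the stricter removal of every BEC with 3 or more genes of such a list, which leaves 40 of 316 control BECs, *Olfml2a* stood at 2.13 ± 0.21 (SE, adjusted p = 0.00766), *Npnt* at 3.74 ± 1.07 (SE, adjusted p = 0.0734) and *Itih5* at 0.35 ± 0.28 (SE, adjusted p = 0.455) in edgeR. Without cycling cells all 3 were called by edgeR, at 2.42, 2.02 and 1.11.

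The plate series bears on the same contrast. With the series as a block, which leaves mutant 5 as the only mutant beside the controls, edgeR gave *Npnt* 2.45 ± 0.32 (SE, adjusted p = 0.0440), *Olfml2a* 2.13 ± 0.37 (SE, adjusted p = 0.0920) and *Itih5* 0.92 ± 0.27 (SE, adjusted p = 0.316). The call of *Itih5* was lost in 11 of 19 alternatives, among them without control 1, without control 2 and without mutants 2, 3 or 4, with edgeR adjusted p of 0.0938, 0.150, 0.0829, 0.0956 and 0.0664. *Npnt* and *Olfml2a* were called without any 1 mouse. Without control 2, *Mest* was called as well, at 3.58 ± 0.27 (SE, adjusted p = 0.00888) in edgeR. Over all 19 alternatives the adjusted p of edgeR or DESeq2 ran from 1.64e-22 to 0.109 for *Npnt*, 8.39e-12 to 0.144 for *Olfml2a*, 3.59e-05 to 0.455 for *Itih5* and 0.00246 to 0.473 for *Mest*.

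Within each mouse, LECs and BECs of the same plates were then set side by side, in 1 edgeR fit over all 7 mice with the mouse as a block. Of the 10 genes, 7 were called higher in LECs and 1 lower, beside 14.0% and 12.4% of all 17593 genes. Since LEC expression helped to choose the list, nothing is read from the count. The adjusted p of single genes in this comparison carry the same limit and are no independent support for a higher level in LECs. *Ptx3* differed most, with a log2 ratio of 6.28 ± 0.60 (SE, adjusted p = 6.65e-05). Its ratio was 6.35 and 7.06 in controls and 2.87, 7.21, 6.89, 7.11 and 5.87 in mutants 1 to 5, lowest in mutant 1. *Serinc2*, *Susd2*, *Pcsk6* and *Nsg1* had log2 ratios of 4.35, 4.27, 4.17 and 4.10, with edgeR adjusted p from 6.02e-06 to 6.78e-05. These 4 were above 2 in all 7 mice.

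The remaining genes were closer between the classes. *Tspan18* had a smaller edgeR ratio of 1.20 ± 0.14 (SE, adjusted p = 0.000179), and *Olfml2a* one of 0.41 ± 0.09 (SE, adjusted p = 0.00927), which was lost in 3 of 19 alternatives. *Npnt*, at 0.59 ± 0.34 (SE, adjusted p = 0.245) in edgeR, was not called. Its log2 ratio was -0.53 and -1.05 in controls and 0.65, 0.46, 1.40, 1.61 and 1.51 in mutants, that is, below 0 in both controls and above 0 in all mutants. *Mest*, at 0.48 ± 0.24 (SE, adjusted p = 0.183) in edgeR, had ratios of 1.78 and 1.01 in controls and -0.08, -0.04, -0.19, 0.36 and 0.67 in mutants. *Itih5* was lower in LECs than in BECs, at -1.96 ± 0.23 (SE, adjusted p = 0.000203) in edgeR, with ratios of -0.90 and -1.23 in controls and -1.96, -2.36, -1.97, -2.80 and -2.38 in mutants. The difference between genotypes in these ratios was not tested.

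Related gene lists were read in the same fits. By edgeR, 25 of the 40 further markers named by the study were higher and 6 lower in LECs than in BECs, with a median log2 ratio of 1.14. Of all 17593 genes, 14.0% were higher and 12.4% lower. As the 40 were chosen on LECs, nothing is read from this count. Between mutant and control BECs, 4 of 40 were called higher by edgeR, beside 1.51% of all 19315 genes. In edgeR these were *Mmp2* at 2.95 ± 0.15 (SE, adjusted p = 0.000534) and *Lmna*, a nuclear lamin gene, at 0.79 ± 0.13 (SE, adjusted p = 0.0200). The others in edgeR were *Igfbp4*, an IGF-binding protein gene, at 1.52 ± 0.26 (SE, adjusted p = 0.0308), and the actin-binding *Cotl1* at 1.5005 ± 0.30 (SE, adjusted p = 0.0442). These 4, and the gene named next, were picked out after their values were seen. Among the hyaluronan genes, 6 of 15 were higher and 4 lower in LECs, beside the same 14.0% and 12.4% of all genes. In mutant BECs 1 of 15 was called higher, beside 1.51% of all genes. It was the proteoglycan gene *Vcan* at 4.08 ± 0.33 (SE, adjusted p = 0.00428) by edgeR. Of the close relatives of the 10 genes, 4 of 12 were higher and 3 lower in LECs, beside the same shares of all genes.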

How the data were processed

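Single-cell gene counts of 9 plates with 384 wells each were used as deposited. The authors aligned the reads to GRCm38 with TopHat2 (2.1.1), removed duplicate reads with SAMtools (0.1.18) and counted reads per gene over exons with featureCounts, so the deposited values are raw counts, one column per well, for 46517 Ensembl genes and 92 spike-ins. Symbols were found for 98.9% of the genes. A well was kept with 200 genes or more, 50000 reads or more and a mitochondrial share up to 10%. LECs and BECs were called by marker sums, and reads were summed per mouse and class, both plates of mutants 3 and 5 together. The mouse is the replicate. The sums were tested in edgeR (4.0.16, R 4.3.3) with TMM scaling, filterByExpr and quasi-likelihood F tests, against a change in either direction, adjusted by Benjamini-Hochberg over all genes tested and called at 0.05. LECs and BECs of the same mouse were paired as a block, since they come from the same animal, and their deviations from the group means correlated at 0.0755 to 0.314. Mutant and control BECs were compared without a block. The SE of a log2 fold change was taken from the fold change and its F value.

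Spearman correlations were computed for genes of at least 10 CPM in the LECs of a genotype with Python (3.11.15) and scipy (1.17.1), and carry no p. Exon lengths for RPKM were those of the tables. Shares used cells thinned to 50000 reads, with limits that cover counting error only. All 10 markers were named in every comparison, with the 10 genes most like *Ptx3* per genotype and up to 4 values per list. The markers and lists were chosen with earlier results of these data known. The alternatives were DESeq2 (1.42.0) and its size factors, no filter on low counts, each mouse left out, other marker limits, cells over both limits, cells with other cell types' markers or cycling cells removed, thinned or equal cells, first plates, Pearson's r, and blocks by replicate number or plate series. Control mice only, BECs without cycling cells, removal of cells with 1000 CPM of another type's markers, and genes per cell held fixed were chosen after seeing the data. The fits were tested on simulated counts.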

Additional observations from a re-analysis of the deposited data

Results flagged for a closer look

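Groups of 5 mutant mice were checked for a single mouse far from the others by Dixon's criterion at 95%. Of 59 such groups 5 stood out, and chance alone flags about 1 in 20.

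*Ptx3* was highest in the LECs of mutant 4, at 361 CPM, where the other 4 mutants had 287 to 307 CPM. In BECs *Ptx3* was highest in mutant 1, at 40.4 CPM beside 2.03 to 4.92 CPM in the others, and 3 cells held 82.2% of these reads. *Olfml2a* was highest in the LECs of mutant 5, at 1068 CPM beside 774 to 849 CPM. The rho of *Susd2* with *Ptx3* was lowest in mutant 1, at 0.180 beside 0.371 to 0.396. The share of LECs with a *Serinc2* read was highest in mutant 5, at 81.5% beside 54.5% to 59.0%.

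The *Npnt* level was higher in LECs than in BECs of every mutant, with a mean log2 ratio of 1.13, and lower in LECs of both controls, with a mean of -0.79. The rho of *Nsg1* with *Ptx3* was above 0 in every mutant, with a mean of 0.180, and below 0 in both controls, with a mean of -0.0863. Neither difference between the genotypes was tested.

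Cells of neither class entered no comparison. In these cells *Itih5* had a mean of 205 CPM over the mutants, beside 21.9 to 66.1 CPM in the controls, and the count of such cells was 3 to 22 in mutants and 21 and 29 in controls.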

How the results depend on the processing

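Between LECs and BECs, 4645 genes were called, beside 1757 with every cell removed that carried 3 or more genes of another cell type's list and 661 in control mice only. The log2 ratio of *Npnt* reversed in control mice only, at -0.81 (edgeR adjusted p = 0.465, 0.00650 to 0.697 over all alternatives in edgeR or DESeq2), and the cause was not tested. The 7 genes called higher in LECs numbered 6 to 9 in the 19 alternatives. In BECs, 410 genes were called between genotypes, beside 2238 by DESeq2, 1105 without cells of another type's list, 54 with plate series as a block and 159 to 586 when 1 mouse was left out. With the replicate number as a block, edgeR called 0 genes, with 2710 at an unadjusted p under 0.05. That pairing leaves 3 of 5 mutants without a partner, and same-numbered samples of the 2 genotypes come from different animals. Deviations of same-numbered BEC samples correlated at 0.0278 and 0.107. With 2 controls, the other control gives the same values with the sign turned, -0.0278 and -0.107, so these values decide nothing about pairing. Of the 10 markers, 3 were called higher in mutant BECs, beside 6 by DESeq2, 0 with the replicate block, 1 with the plate series block, and 2 or 3 when 1 mouse was left out. The median rho with *Ptx3* in controls, 0.165, was 0.245 as Pearson's r, 0.175 thinned, 0.161 without cycling cells, 0.280 without cells over both limits, 0.153 and 0.177 with limits of 100 and 1000 CPM, 0.240 without cells of another type's list, 0.146 with genes per cell held fixed, and 0.157 to 0.162 with 1 control left out. In mutants the median moved by less than the spread over mice in all alternatives. The mean share of cells with a *Ptx3* read depended on depth. In control and mutant LECs it was 52.0% and 81.2% without thinning, and in BECs 17.4% and 46.2%. At 3 or more reads it was 40.3% in mutant LECs, 1.64% in mutant BECs and 0% in control BECs.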
